A study of Mus musculus with 12 samples.

Results

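The mRNA levels of 9 genes that restrain MAP kinase signalling were followed in mouse CD4 T cells: the dual-specificity phosphatase genes Dusp1, Dusp2, Dusp4, Dusp5, Dusp6, Dusp7 and Dusp10, and the Sprouty genes Spry1 and Spry2. These 9 genes, of 55450 in the tables, were chosen by symbol with results of the same libraries known: their levels in the 4 groups, the difference between knockout and wild type in each condition, and the difference between the genotypes' responses. Their own values are therefore given as a description, without p-values. All 9 were found in the tables, and all 9 passed the filter on low counts in each comparison.

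Naive T cells were taken from the spleen and the lymph nodes of mice that were wild type (WT) or Pkm2 knockout (KO), which lack the M2 form of the glycolytic enzyme pyruvate kinase. Cells of all 4 groups were kept for 24 hours in medium with human interleukin 7 (IL7) at 25 ng/mL, a survival cytokine of naive T cells. The resting groups received nothing more. The stimulated groups were plated on wells coated with anti-CD3 (1 ug/mL) and anti-CD28 (2 ug/mL), antibodies that engage the T cell receptor and its costimulatory receptor. RNA was taken from CD4 T cells recovered by positive selection, and each of the 4 groups held 3 libraries. Other labels call the source splenocytes and the culture overnight, while the strain, age, knockout allele and any Cre driver are not stated in the sources used here. Whether each library came from a different mouse is not stated either, so errors and p-values below measure only the spread among these libraries, possibly a technical spread.

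MAP kinases are switched on by phosphorylation of a threonine and a tyrosine in their activation loop, and dual-specificity phosphatases switch them off by removing both phosphates. In T cells the receptor drives ERK through RAS and a kinase cascade, and drives JNK and p38 through parallel kinase cascades. Many of the phosphatase and Sprouty genes are themselves induced by MAP kinase activity, which makes them negative feedback regulators. Dusp1, Dusp2, Dusp4 and Dusp5 encode inducible phosphatases of the nucleus, of which Dusp5 acts on ERK. Dusp6 and Dusp7 encode cytoplasmic phosphatases of ERK, and Dusp10 encodes a phosphatase of JNK and p38. Spry1 and Spry2 encode membrane-associated adaptors that dampen the path from receptors through RAS to ERK.

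The promoter stretches of Dusp1 and Dusp5 are printed because these genes had the largest differences between the genotypes' responses among the 9, 1.08 and 0.68 on the log2 scale, the next being Spry1 at 0.41. Capitals mark cyclic AMP response element cores in both: TGACG or its reverse complement CGTCA, which overlap in the full element TGACGTCA. In Dusp5 they also mark a pair of adjoining CArG boxes, the motif of serum response factor. The sequences are from RefSeq (GRCm38.p6), each 5′ to 3′ along its gene. Dusp1 lies at chr17:26508563-26508682 on the minus strand, covering bases 210 to 91 before the RefSeq start; it lies within the span of the Dusp1 gene in GENCODE M21 but overlaps none of its exons. Dusp5 lies at chr19:53529025-53529104 on the plus strand, covering bases 120 to 41 before the start, and ends ahead of the annotated gene.
Dusp1: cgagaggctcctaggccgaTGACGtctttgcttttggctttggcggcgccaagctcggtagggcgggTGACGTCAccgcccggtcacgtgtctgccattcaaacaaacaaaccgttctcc
Dusp5: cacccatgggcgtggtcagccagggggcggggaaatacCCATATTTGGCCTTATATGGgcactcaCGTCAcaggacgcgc

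Of the 9 genes, 8 matched a RefSeq promoter entry, and Dusp4 did not. The 250 bases before the start were searched on both strands, beside 32851 promoter windows of the same length. The full element TGACGTCA was found in Dusp1 alone of the 8, at bases 143 to 136 before the start, and in 1.55% of all windows. Its core TGACG, which the full element contains, was found in Dusp1 and Dusp5 and in 17.8% of all windows. The CArG box had 2 matches in Dusp5, at bases 82 to 73 and 72 to 63, none in the other 7, and a match in 1.47% of all windows. The EGR site GCGNGGGCG was found in Dusp2 and in 4.70% of windows. The AP-1 site TGANTCA (6.75% of windows), the ETS core CCGGAA (12%), the NFAT core TGGAAA (18.6%) and the NF-kappa-B site (7.25%) had no match in these 8 windows. A match here is a description of letters, and binding was not measured.

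The mRNAs also differ in AU-rich elements, the ATTTA-type motifs of a 3′ untranslated region (3′ UTR) that are known to speed mRNA decay. Dusp1 was the only gene of the 9 with the 9-base form TTATTTATT, which 7.34% of 13412 tested genes held. It had 2 copies, shown here in capitals within their GENCODE M21 transcript, at 3′ UTR positions 103 and 392 in the last exon. The first lies at chr17:26506161-26506185 and the second at chr17:26505872-26505896, both on the minus strand.
Dusp1 first site: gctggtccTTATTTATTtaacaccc
Dusp1 second site: ttttacctTTATTTATTtttgtgta
Per kilobase of 3′ UTR, Dusp2 held 6.88 and Dusp1 held 5.80 copies of ATTTA, against a median of 1.20 over the 13412 genes. The other 7 ranged from 0 in Dusp7 to 2.70 in Dusp10. The shorter form TATTTAT, in 27.5% of genes, was found in Dusp1, Dusp2, Spry1 and Spry2. By gene structure the 2 Sprouty genes differ from the phosphatases: Spry1 (313 residues) and Spry2 (315 residues) are each coded by 1 exon. The phosphatases span 318 residues in Dusp2 to 483 in Dusp10, coded by 3 or 4 exons.

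Resting libraries held 63266477 to 72128433 counts in total and stimulated libraries 67333490 to 76891786, so the 9 genes were covered by between 44 and 11318 counts per library. Levels below are in CPM, counts relative to the scaled library size, except for sums of markers, which are relative to the unscaled total. Pkm, the targeted gene, checked the labels: it was lower in every KO library, by a log2 fold change of -1.30 ± 0.08 (SE) at rest (edgeR adjusted p = 0.0041) and -1.23 ± 0.03 with stimulation (adjusted p = 1.4e-08). The 12 CD4 T cell markers were detected in all libraries and summed to 5759 to 7055 CPM at rest and 2426 to 2696 CPM after stimulation. Transcripts of other cells were present too, most of all at rest. The 12 myeloid markers summed to 3771, 2119 and 1363 CPM in WT resting and 1246 to 1292 CPM in KO resting libraries. After stimulation they summed to 44.6 to 70.6 CPM in WT and 81.8 to 90.5 CPM in KO. The 10 B cell markers summed to 1239 to 2417 CPM in WT and 1757 to 1858 CPM in KO at rest, and to 330 to 503 CPM in WT and 659 to 689 CPM in KO after stimulation. The 6 erythroid markers stood at 1683 and 1590 CPM in the resting libraries numbered 1 of WT and KO, and at 56.5 to 496 CPM in the other 4 resting libraries. No marker of these lists was at 0 in a whole group. Xist was at 0.0496 to 0.0867 CPM in resting and 941 to 1126 CPM in stimulated libraries, and the Y-linked Ddx3y at 143 to 167 CPM and at 0 counts. By these transcripts the resting libraries look male and the stimulated libraries look female, in both genotypes. The resting and stimulated cells therefore appear to come from different mice. Wherever stimulated and resting cells are compared, stimulation and sex go together and cannot be told apart. The part of sex in the responses, or in their difference between the genotypes, was not tested. In bulk samples, fewer cells of a type and less RNA per cell cannot be told apart either.

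Stimulated libraries held more mRNA of these brakes in sum, with a different make-up. The 9 genes summed to 283 ± 15.0 CPM in WT resting, 266 ± 7.85 in KO resting, 509 ± 23.3 in WT stimulated and 574 ± 18.1 in KO stimulated libraries (SD, n = 3). The lowest stimulated library, at 482 CPM, was above the highest resting library, at 300 CPM. The stimulated groups did not overlap either, with 482 to 526 CPM in WT and 560 to 594 CPM in KO. Taken singly, 28.0% of all genes did not overlap between the stimulated groups. The 9 genes were picked with this contrast known, so nothing is read from the order of the sums. Not all 9 went with the sum: the means of Dusp7 (48.7 CPM in WT, 44.6 in KO) and Dusp10 (26.5 and 26.1) were lower in KO.

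**Figure D1:**
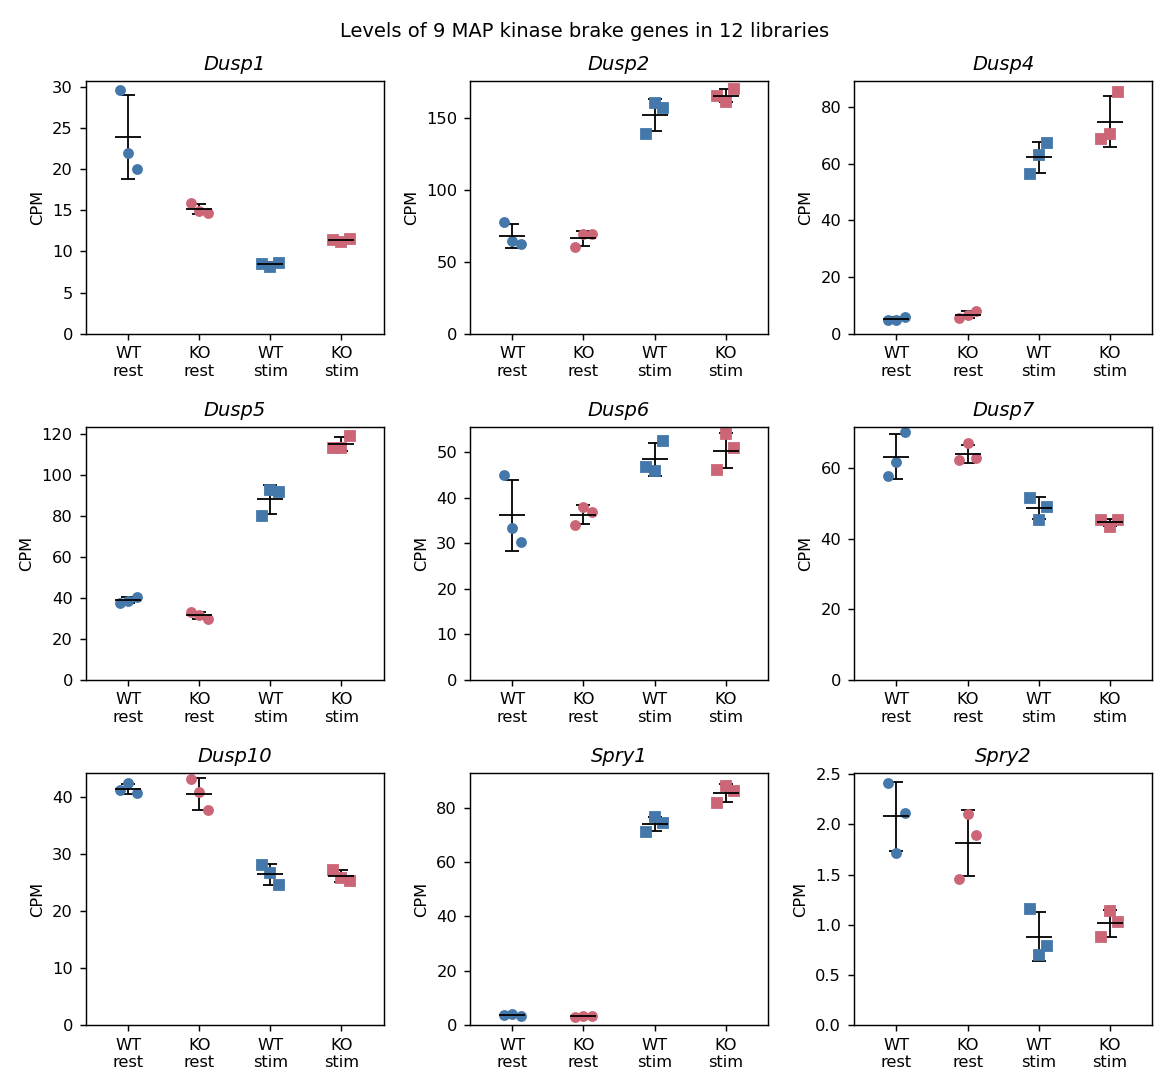
Level of each gene in CPM (y axis, linear, from 0, scaled per panel) in the 12 libraries by group (x axis), with points for libraries, a long bar for the mean and a short-capped bar for the SD (n = 3). Spry1 and Dusp4 stand far higher in all 6 stimulated libraries than in any resting one, while Dusp1 falls from 20.0 to 29.6 CPM in WT resting to 8.16 to 8.61 CPM in WT stimulated libraries.

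Per kilobase of exon, a rough scale for comparing genes, Dusp2 had the highest and Spry2 the lowest level of the 9 in all 4 groups. The length merges the exons of all annotated transcripts, so a gene whose expressed mRNA is shorter is placed too low. For Dusp1 it merges 6 transcripts into 3311 bases. Which transcripts were expressed was not tested. In WT resting cells the order of mean CPM per kilobase was Dusp2 (34.0), Dusp7 (18.9), Dusp5 (15.6), Dusp10 (13.6), Dusp6 (11.5), Dusp1 (7.20), Dusp4 (1.94), Spry1 (1.31) and Spry2 (0.995). Only Dusp10 and Dusp6 among these neighbours overlapped between libraries. In WT stimulated cells the order was Dusp2 (75.8), Dusp5 (35.6), Spry1 (25.5), Dusp4 (22.7), Dusp6 (15.5), Dusp7 (14.5), Dusp10 (8.70), Dusp1 (2.54) and Spry2 (0.423). Spry1 overlapped with Dusp4 there, and Dusp6 with Dusp7. KO cells had the same order as WT after stimulation. At rest they differed in placing Dusp10 (13.3) above Dusp5 (12.7), and these 2 overlapped, as did Dusp5 and Dusp6 (11.6). Dusp2 held 32.3% ± 2.01 of the summed CPM per kilobase of the 9 in WT resting and 37.6% ± 1.08 in WT stimulated libraries (SD, n = 3). Over the same groups Spry1 went from 1.25% ± 0.124 to 12.7% ± 0.337, and Dusp1 from 6.81% ± 1.04 to 1.27% ± 0.0822.

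Dusp1 encodes an inducible nuclear phosphatase of p38, JNK and ERK (chromosome 17, 26505590 to 26562128, minus strand, mm10). It was measured at 29.6, 21.9 and 20.0 CPM in WT resting, 15.9, 14.9 and 14.7 CPM in KO resting, 8.50, 8.16 and 8.61 CPM in WT stimulated, and 11.4, 11.1 and 11.5 CPM in KO stimulated libraries. KO was below WT in every resting library and above WT in every stimulated library, so the order of the genotypes turned over between the conditions. On the log2 scale KO stood at -0.66 ± 0.15 (SE) relative to WT in resting and at 0.43 ± 0.06 in stimulated cells. Stimulated cells had less Dusp1 than resting cells in both genotypes, by a log2 fold change of -1.50 ± 0.12 in WT and -0.42 ± 0.11 in KO, and the difference of these responses was 1.08 ± 0.16.

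WT resting replicate 1 stood apart for Dusp1, and it also had the highest sum of myeloid markers, 3771 CPM. All 12 myeloid markers had a log2 fold change below 0 in KO at rest (median -1.33), though none was called by edgeR (9 lower at an unadjusted p under 0.05). Over the 3 WT resting libraries Dusp1 and the myeloid sum had the same order, which the B cell, neutrophil and erythroid sums, among others, shared. Over the 3 KO resting libraries Dusp1 (15.9, 14.9 and 14.7 CPM) and the myeloid sum (1246, 1279 and 1292 CPM) had opposite orders. Both ranges were narrow, so nothing is read from that order. Without the resting libraries numbered 1 of both genotypes, the difference at rest was -0.51 and that of the responses 0.94, and without WT resting replicate 1 alone they were -0.47 and 0.89. Heat shock genes were also lower in KO at rest, with the sum of 9 genes at 5324 to 6477 CPM in WT and 4075 to 4266 CPM in KO. Within WT resting libraries that sum rose from replicate 1 to replicate 3 while Dusp1 fell. The part of these transcripts in the Dusp1 values was not tested. In the annotation 11 exon bases of Dusp1 overlap Ergic1 on the opposite strand. Use of the strand in counting is not stated in the sources used here.

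Dusp5 encodes the nuclear phosphatase that acts on ERK (chromosome 19, 53529109 to 53542431, plus strand). It was measured at 37.4, 38.6 and 40.2 CPM in WT resting, 33.2, 31.6 and 29.8 CPM in KO resting, 79.9, 92.6 and 91.8 CPM in WT stimulated, and 113, 113 and 119 CPM in KO stimulated libraries. As with Dusp1, every KO library was below WT at rest and above WT after stimulation, with log2 fold changes of -0.30 ± 0.05 (SE) and 0.39 ± 0.05. Unlike Dusp1, stimulated cells had more Dusp5 than resting cells, 2.28-fold in WT and 3.65-fold in KO. The difference of the responses was 0.68 ± 0.09 on the log2 scale, and it was 0.75 without the resting libraries numbered 1. Of the exon bases of Dusp5, 547 also belong to the antisense gene AC137853.2, so the 2 cannot be told apart if counting did not use the strand.

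Dusp2 encodes a nuclear phosphatase known from activated T cells (chromosome 2, 127336159 to 127338376, plus strand). It was measured at 77.5, 64.5 and 62.2 CPM in WT resting and 60.4, 69.5 and 69.5 CPM in KO resting libraries, which overlap. Stimulated libraries had 139, 160 and 157 CPM in WT and 165, 161 and 170 CPM in KO, which do not overlap, although the nearest libraries of the genotypes, at 160 and 161 CPM, were close. Stimulated levels were 2.23-fold those of resting cells in WT and 2.49-fold in KO. KO relative to WT gave log2 values of -0.05 ± 0.10 (SE) at rest and 0.13 ± 0.05 with stimulation, and the difference of responses was 0.16 ± 0.12.

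Dusp4, another inducible nuclear phosphatase (chromosome 8, 34807297 to 34819894, plus strand), had the largest rise of the 7 phosphatase genes. It was measured at 5.04, 4.96 and 5.99 CPM in WT resting, 5.47, 6.69 and 8.02 CPM in KO resting, 56.5, 62.9 and 67.2 CPM in WT stimulated, and 68.6, 70.5 and 85.1 CPM in KO stimulated libraries. Levels were 11.7-fold higher after stimulation in WT and 11.1-fold higher in KO. The genotypes overlapped at rest and not after stimulation, where KO was higher by 0.27 ± 0.10 (SE) on the log2 scale. The corresponding value at rest was 0.33 ± 0.16, so the difference of responses was -0.07 ± 0.19.

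Dusp6 and Dusp7, the cytoplasmic phosphatases of ERK, moved in opposite directions with stimulation. Dusp6 (chromosome 10, 99263231 to 99267489, plus strand) was measured at 45.0, 33.3 and 30.2 CPM in WT resting, 34.0, 38 and 36.9 CPM in KO resting, 46.9, 45.9 and 52.6 CPM in WT stimulated, and 46.2, 54.0 and 51.0 CPM in KO stimulated libraries. The WT and KO ranges overlapped in both conditions, with log2 fold changes of -0.01 ± 0.16 (SE) and 0.06 ± 0.07. WT resting replicate 1 was the highest resting library for Dusp6, as for Dusp1 and Dusp2. Stimulated levels were higher by 0.42 ± 0.13 in WT and 0.48 ± 0.13 in KO on the log2 scale. With unscaled library totals those values shrank to 0.08 and 0.15 and were no longer called. Dusp7 (chromosome 9, 106368632 to 106375724, plus strand) was measured at 57.9, 61.7 and 70.4 CPM in WT resting, 62.4, 67.1 and 62.9 CPM in KO resting, 51.6, 45.4 and 49.0 CPM in WT stimulated, and 45.3, 43.3 and 45.2 CPM in KO stimulated libraries. Stimulated levels were lower by a log2 fold change of -0.38 ± 0.07 in WT and -0.52 ± 0.07 in KO. After stimulation every KO library was below every WT library, with 45.4 and 45.3 CPM as the nearest pair, and the log2 fold change was -0.12 ± 0.05.

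Dusp10, the phosphatase of JNK and p38 (chromosome 1, 184013302 to 184075636, plus strand), was measured at 41.2, 42.4 and 40.7 CPM in WT resting and 43.2, 40.9 and 37.7 CPM in KO resting libraries. Stimulated libraries had 28.2, 26.7 and 24.6 CPM in WT and 27.3, 25.9 and 25.3 CPM in KO. The genotypes overlapped in both conditions, and the log2 ratio of KO to WT was -0.04 ± 0.06 (SE) in resting and -0.01 ± 0.06 in stimulated cells. Its fall with stimulation was -0.65 ± 0.06 in WT and -0.63 ± 0.06 in KO, a difference of 0.01 ± 0.08.

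Spry1 had the largest rise of all 9 genes (chromosome 3, 37639947 to 37644598, plus strand). It was measured at 3.91, 4.11 and 3.44 CPM in WT resting and 2.93, 3.58 and 3.42 CPM in KO resting libraries, which overlap. Stimulated libraries had 71.2, 76.4 and 74.3 CPM in WT and 81.7, 88.0 and 86.2 CPM in KO, with every KO library above every WT library. Levels were 19.4-fold higher after stimulation in WT and 25.8-fold higher in KO. The log2 ratio of KO to WT was -0.22 ± 0.15 (SE) in resting and 0.21 ± 0.04 in stimulated cells, which makes a difference of responses of 0.41 ± 0.11. Gm42922, a transcript on the opposite strand, shares 710 exon bases with Spry1.

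Spry2, the other Sprouty gene of the 9 (chromosome 14, 105891947 to 105896819, minus strand), went the opposite way at a far lower level. It was measured at 2.41, 1.72 and 2.11 CPM in WT resting, 1.46, 2.10 and 1.89 CPM in KO resting, 1.16, 0.698 and 0.790 CPM in WT stimulated, and 0.876, 1.14 and 1.03 CPM in KO stimulated libraries. The genotypes overlapped in both conditions. Stimulated levels were lower by a log2 fold change of -1.23 ± 0.23 (SE) in WT and -0.83 ± 0.23 in KO. With 44 to 79 counts in each stimulated library, its difference of responses, 0.40 ± 0.33, was close in size to that of Spry1 and had a wider error.

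**Figure D2:**
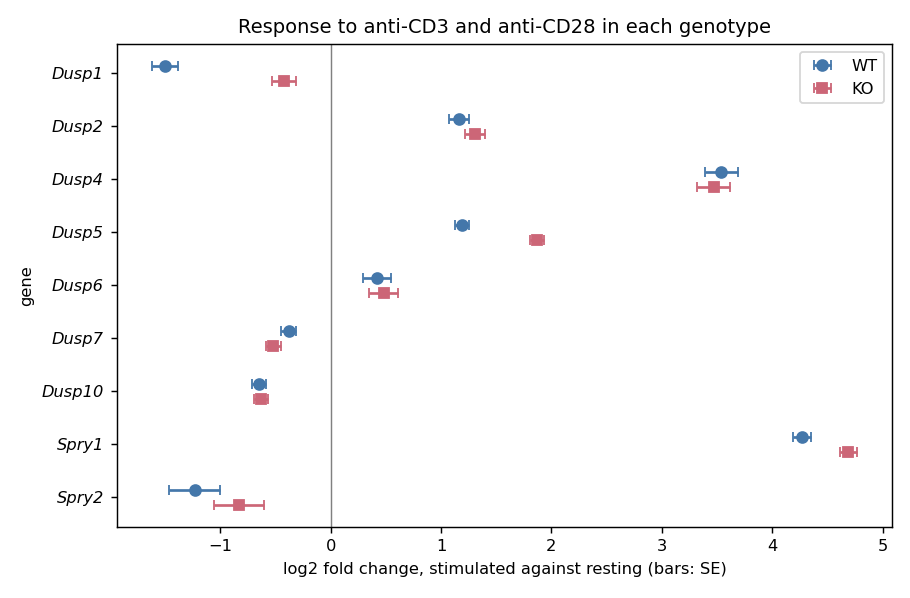
Log2 fold change of stimulated against resting cells (x axis, bars for SE) for each of the 9 genes (y axis), with circles for WT and squares for KO. The Dusp1 and Dusp5 markers of the genotypes lie apart by 1.08 and 0.68, and in KO both lie to the right of WT.

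Read as calls, a gene was called when edgeR's quasi-likelihood F-test passed a Benjamini-Hochberg threshold of 0.05 over all genes tested. With stimulation, 5 of the 9 genes were called higher in WT (Dusp2, Dusp4, Dusp5, Dusp6 and Spry1), where 39.3% of all genes tested were called higher. The other 4 (Dusp1, Dusp7, Dusp10 and Spry2) were called lower, where 44.8% were. The same 5 and 4 genes were called in KO, where 39.6% of all genes were called higher and 43.2% lower. With unscaled library totals, which shift the median of all genes by -0.34 in WT and -0.33 in KO, 5537 genes were called higher and 9110 lower in KO, in place of 6917 and 7550. The 9 genes kept their directions under that scaling.

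Between genotypes, none of the 9 was called at rest, where 0.0361% of genes (6 of 16637) were called by edgeR in either direction. An unadjusted p under 0.05 was reached by 2284 genes, 2 of the 9 among them and both lower, and DESeq2 called 465 genes, Dusp1 and Dusp5 among them. Every KO library was below every WT library at rest for Dusp1 and Dusp5, and the groups did not overlap in either direction for 19.9% of all genes. After stimulation 3 of the 9, Dusp1, Dusp5 and Spry1, were called higher in KO, where 3.37% of genes were, and none was called lower, where 1.40% were (1 at an unadjusted p under 0.05, and none by DESeq2). No overlap between the genotypes was seen for 6 of the 9 (Dusp1, Dusp2, Dusp4, Dusp5 and Spry1 higher, Dusp7 lower in KO) and for 28.0% of all genes. The split of all calls, 508 higher and 211 lower, became 567 and 120 with unscaled totals. For the difference of responses, 2 of the 9, Dusp1 and Dusp5, were called higher, where 0.556% of genes were, and none lower, where 0.137% were (none at an unadjusted p under 0.05 and none by DESeq2). That split, 97 higher and 24 lower over all genes, became 87 and 38 with DESeq2's size factors. Since these contrasts were known when the 9 genes were picked, nothing is read from their counts. The comparisons at rest, after stimulation and of the responses share libraries.

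Some of the calls rested on the fit or on individual libraries. After stimulation Dusp1 (0.42) and Spry1 (0.21) were not called when all 12 libraries were fitted together. Spry1 was also not called without WT stimulated replicate 3 (0.21), KO stimulated replicate 2 (0.19) or KO stimulated replicate 3 (0.21), and Dusp7 was called without WT stimulated replicate 2 (-0.17). The Dusp1 difference of responses was not called without KO stimulated replicate 3 (1.07), whereas that of Spry1 was called without WT resting replicate 3 (0.49) and by DESeq2 (0.39). DESeq2 also called Dusp4 higher in KO after stimulation (0.27). Some markers of other cells were also called higher in KO after stimulation, where 3.37% of all genes were. These were 5 of 12 myeloid, 1 of 10 B cell, 1 of 3 dendritic cell and 1 of 2 CD8 T cell markers. Of the CD4 T cell markers 1 of 12 was called higher too. None of 6 natural killer cell and 2 neutrophil markers tested was called. The 5 erythroid markers tested went the other way, with a median of -1.05 (0 above 0, none called). The CD8 T cell markers summed to 28.5 to 32.7 CPM in KO stimulated libraries, above the 15.4, 19.1 and 21 CPM of the WT stimulated libraries, and the sums of the myeloid and B cell markers did not overlap between the genotypes either. For the difference of responses the myeloid markers had a median of 1.81 (12 of 12 above 0, 1 called), beside -0.01 over all genes. The B cell markers had 0.67 (10 of 10, none called) and the heat shock genes 0.65 (9 of 9, none called). The CD4 T cell markers had -0.03 (3 of 12 above 0) and the erythroid markers -0.80 (0 of 6). The part of these transcripts in the differences between the genotypes was not tested.

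**Figure D3:**
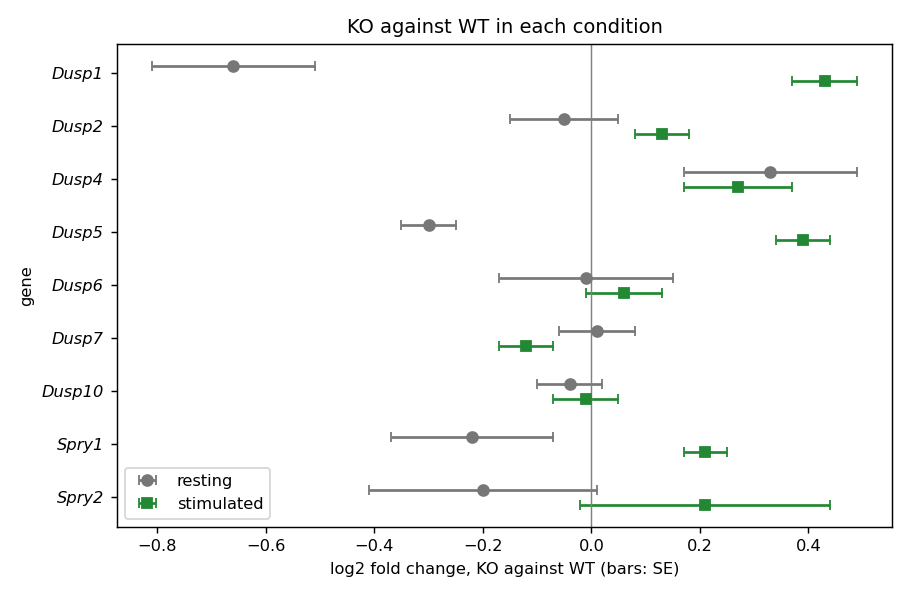
Log2 fold change of KO against WT (x axis, bars for SE) for each of the 9 genes (y axis), with circles for resting and squares for stimulated cells. Dusp1 and Dusp5 lie left of 0 at rest (-0.66 and -0.30) and right of 0 after stimulation (0.43 and 0.39), while Dusp10 lies near 0 in both.

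Around these brakes, 9 lists of MAP kinase pathway genes held 100 genes, of which 95 were tested for the response to stimulation. In WT 47 were called higher and 35 lower, and in KO 50 and 33, with medians of 0.29 and 0.33 on the log2 scale beside -0.14 and -0.11 over all genes. Over all genes 39.3% were called higher and 44.8% lower in WT, and 39.6% and 43.2% in KO. With unscaled totals the KO counts of the lists became 40 and 40. Among further phosphatases that act on MAP kinases, 7 of 8 rose and 1 fell in each genotype. Of these risers, Ptpn7 and Ppm1a changed sign in KO with unscaled totals. Ptpn5, a tyrosine phosphatase, rose from 2.29 to 25.2 CPM in WT (log2 fold change 3.47 ± 0.25, adjusted p = 2.2e-07), and Ppp2cb, a catalytic subunit of protein phosphatase 2A, rose from 41.2 to 114 CPM (1.47 ± 0.04, adjusted p = 2.4e-12). Of the atypical dual-specificity phosphatases, 4 of 10 rose and 4 fell. Dusp14, a negative regulator of T cell receptor signalling, rose from 0.375 to 3.08 CPM in WT (3.03 ± 0.22, adjusted p = 2.9e-08), and Dusp3 fell from 11.0 to 1.93 CPM (-2.51 ± 0.17, adjusted p = 2e-08). Dusp16, a phosphatase of JNK and p38 and the only typical family member outside the 9 called in both genotypes, rose from 14.1 to 25.2 CPM in WT (0.84 ± 0.17, adjusted p = 0.00086). Of the other Sprouty and Spred genes, 3 of 4 rose in both genotypes, of which Spred2 changed sign in KO with unscaled totals. Spred1, an adaptor that dampens the path from RAS to ERK, rose from 24.7 to 45.1 CPM in WT (0.87 ± 0.10, adjusted p = 4.7e-06), and Spry4 was at 0.794 and 1.20 CPM (0.60 ± 0.23, adjusted p = 0.027).

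The remaining lists are read beside the 39.3% of all genes called higher and the 44.8% called lower in WT. Of 13 genes of RAS entry and its GTPase brakes, 9 fell in each genotype, while 1 rose in WT and 2 in KO. Rasgrp2, an exchange factor, fell from 357 to 11.6 CPM in WT (-4.95 ± 0.08, adjusted p = 9.4e-14), and Rasa3, a GTPase-activating protein, from 383 to 38.3 CPM (-3.32 ± 0.06, adjusted p = 1.5e-13). The ERK cascade had 9 of 12 genes rising and 2 falling in each genotype. Among the risers, Shoc2 in WT and Braf in KO turned to the opposite sign with unscaled totals (-0.13 and -0.21). Hras rose from 16.0 to 57.5 CPM in WT (1.85 ± 0.05, adjusted p = 2.9e-12), and the ERK1 gene Mapk3 fell from 46.4 to 29.5 CPM (-0.66 ± 0.05, adjusted p = 4.9e-08). In the JNK and p38 list 9 of 22 rose and 12 fell in each genotype. Of the ERK-induced targets, 11 of 18 rose and 4 fell in WT, and 12 rose and 2 fell in KO. Fosl1 rose from 0.0176 CPM, under the floor of 3 counts, to 17.8 CPM in WT, whereas Ccnd1, the cyclin D1 gene, fell from 35.8 to 0.420 CPM (-6.41 ± 0.32, adjusted p = 1.5e-08). Of the 5 AU-rich element binding proteins, whose motif Dusp1 carries, Hnrnpd and Elavl1 rose and Zfp36, Zfp36l1 and Zfp36l2 fell in both genotypes.

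Between genotypes few pathway genes were called. At rest none of 93 tested was called by edgeR, while 5 were higher and 14 lower at an unadjusted p under 0.05 and DESeq2 called 8. Over all genes 2284 of 16637 had an unadjusted p under 0.05, and DESeq2 called 465. The 16 ERK-induced targets tested had a median log2 fold change of -0.34 with 4 above 0, beside 0.01 over all genes, and 8 of the 16 were lower at an unadjusted p under 0.05. In the same comparison the myeloid markers had a median of -1.33 (9 of 12 lower at an unadjusted p under 0.05) and the heat shock genes one of -0.71 (9 of 9). WT resting replicate 1 stood apart for some of these targets, such as Etv5, an ETS factor gene named here with its values known, at 19.0 CPM against 11.9 and 10.3 CPM in the other WT resting libraries. The part of these transcripts and of this library in the median was not tested. After stimulation 3 of 93 were called, all higher in KO, where 3.37% of all genes were, so nothing is read from that count. These were Fosb, an AP-1 subunit (2.66 to 3.83 CPM, log2 fold change 0.53 ± 0.13, adjusted p = 0.043), and 2 genes of mRNA decay proteins, Zfp36 (61.0 to 70.1 CPM, 0.21 ± 0.05, adjusted p = 0.047) and Zfp36l1 (204 to 225 CPM, 0.15 ± 0.03, adjusted p = 0.037). All 3 calls were lost when the 12 libraries were fitted together (adjusted p = 0.094, 0.47 and 0.24). Fosb was not called in any of the 6 fits that left out a stimulated library (adjusted p = 0.056 to 0.16), while Zfp36 and Zfp36l1 were called only in the fit without WT stimulated replicate 2 (adjusted p = 4.2e-04 and 0.023).

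The difference of responses was called for 4 of 95 pathway genes, all higher in KO, where 0.556% of all genes were. These were Fos and Fosb of AP-1, the orphan receptor gene Nr4a1, and Gadd45b, an activator of the JNK and p38 cascades. The pathway lists were chosen with earlier results of these data known, so nothing is read from this count. Fos was measured at 16.2, 11.5 and 9.46 CPM in WT resting, 6.05, 6.65 and 6.74 CPM in KO resting, 5.76, 6.05 and 6.55 CPM in WT stimulated, and 6.45, 6.98 and 7.09 CPM in KO stimulated libraries. Its level fell with stimulation in WT (-1.02 ± 0.16, adjusted p = 4.9e-05) and was 0.08 ± 0.16 in KO (adjusted p = 0.65), with a difference of 1.09 ± 0.22 (adjusted p = 0.047). WT resting replicate 1 again stood apart, as for Dusp1. Nr4a1 averaged 76.3 and 62.8 CPM in WT and KO resting libraries and 93.2 and 108 CPM in stimulated ones, with a difference of responses of 0.50 ± 0.10 (adjusted p = 0.039). Fosb (2.78, 2.06, 2.66 and 3.83 CPM in the same order) differed by 0.96 ± 0.19 (adjusted p = 0.048), and Gadd45b (14.7, 11.6, 76.0 and 92.0 CPM) by 0.63 ± 0.12 (adjusted p = 0.041). Every KO resting library was below every WT resting library for all 4 genes, where the groups did not overlap in either direction for 19.9% of all genes; a low KO value at rest by itself raises the difference of responses that chose these 4, so nothing is read from this order. None of the 4 was called for KO against WT at rest. Egr1, an ERK-induced transcription factor gene, differed by -0.07 ± 0.08 (adjusted p = 0.75).

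**Figure D4:**
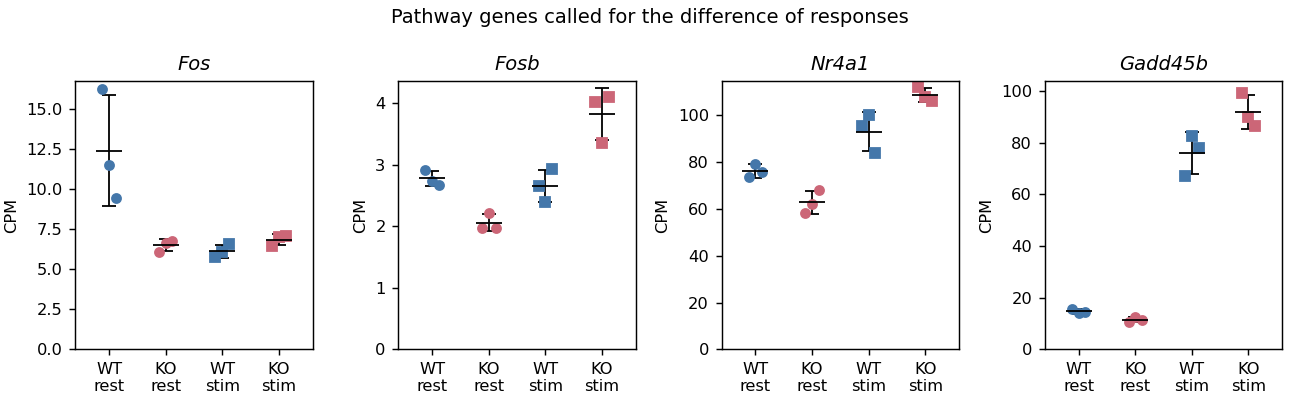
Level in CPM (y axis, linear, from 0, scaled per panel) of the 4 pathway genes called for the difference of responses, by group (x axis), with points for libraries, a long bar for the mean and a short-capped bar for the SD (n = 3). For all 4 genes the KO points lie below WT at rest, and KO means lie above WT means after stimulation.

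These 4 calls were close to the threshold, with adjusted p of 0.039 to 0.048. With 1 library left out, the Fos call held only without WT resting replicate 1 (0.86) or WT resting replicate 3 (1.26), and the Fosb call only without WT resting replicate 3 (0.98). The Nr4a1 call held without WT resting replicate 1 (0.52), WT resting replicate 3 (0.51), KO resting replicate 3 (0.56) or WT stimulated replicate 2 (0.56). The Gadd45b call held without WT resting replicate 1 (0.58), WT resting replicate 3 (0.65), KO resting replicate 2 (0.70) or WT stimulated replicate 2 (0.69). In the fits without each of the remaining libraries the call was lost, with adjusted p up to 0.13 for Fos, 0.12 for Fosb, 0.11 for Nr4a1 and 0.099 for Gadd45b. In the promoter search described above, the core TGACG had 2 matches in Fos, 1 in Fosb, 4 in Nr4a1 and none in Gadd45b. The EGR site had 1 match in each of Fosb, Gadd45b and Nr4a1, the NF-kappa-B site 1 in each of Fos and Fosb, the NFAT core 2 in Gadd45b and the ETS core 1 in Nr4a1. The full element TGACGTCA, the AP-1 site and the CArG box had no match in these 4 windows, which were looked at after the values were seen.

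For each of the 9 genes the most similar genes by level over the 12 libraries were found, by the root mean square difference of centred log2 CPM. This likeness is a description over libraries that share their groups. Nearest to Dusp1 was the spermine oxidase gene Smox (0.122 log2 units), with means of 20.9 CPM in WT resting, 16.1 in KO resting, 8.68 in WT stimulated and 10.4 in KO stimulated libraries. Trafd1 (0.135) and Kcnk6 (0.137) followed. Dusp5 was nearest to the zinc transporter gene Slc39a4 (0.139), then to Socs2 (0.147), a cytokine signalling suppressor gene, and to Gramd1b (0.148). Dusp4 lay nearest to Zbed5 (0.191), the amino acid transporter gene Slc7a5 (0.199) and the mitochondrial serine enzyme gene Shmt2 (0.204). Spry1 lay nearest to Alpl (0.163), Rgs16 (0.169), a regulator of G protein signalling, and Fam72a (0.178). Dusp2 lay nearest to Bid (0.0807), Crtap (0.0811) and the PD-L1 gene Cd274 (0.0822). Dusp6 had Oxsm (0.0962), Sypl and St3gal3, Dusp7 had Esco1 (0.0474), Ubn1 and Svil, and Dusp10 had Pam (0.0596), Whamm and Zfp512. Spry2, the gene with the fewest counts, had Smim27 (0.179), Tmem35b and Inpp5d.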

How the data were processed

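Values are RSEM expected counts, fractional estimates of reads per gene that the authors deposited unnormalized, with resting and stimulated libraries in separate tables. The build mm10 and the tools RSEM 1.3.1, STAR 2.7.0f, cutadapt 1.18 and bcl2fastq 2.20 are listed, without settings, per the submitters' processing notes. Per the labels' protocols a stranded mRNA kit was used.

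Counts were rounded, and genes of low count were dropped by filterByExpr (minimum count 10, minimum total 15). After TMM scaling, the robust quasi-likelihood F-test of edgeR 4.0.16 in R 4.3.3 was used (Benjamini-Hochberg, threshold 0.05). KO was compared with WT within each condition over 6 libraries. Responses and their difference came from 4 group means over 12 libraries. CPM used the TMM-scaled library size, marker sums the unscaled total, and the order of genes the merged exon length of GENCODE M21. All 55450 gene identifiers were found in that annotation. Replicates differed by 3.92 to 151 chi-square per degree of freedom, beyond sampling noise, and were counted separately.

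The 9 genes, the pathway lists and the marker lists were chosen with earlier results of these data known. Named besides them were Pkm, up to 4 called genes per list with the largest change (up to 2 by level where none was called), and the 3 most similar genes per member with a mean of at least 3 CPM. Egr1 and the genes of markers and checks lie outside that rule and were named with their values known. The values of 1 pathway gene are not reported here. Alternatives were DESeq2's size factors, the DESeq2 1.42.0 Wald test, other filters, a fit without robust estimation, different library sets, a replicate block and each library left out. Unscaled totals, and leaving out both resting libraries numbered 1, were added after the data were seen.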

Additional observations from a re-analysis of the deposited data

Results flagged for a closer look

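The response to stimulation was called different between the genotypes, by edgeR's test of the difference itself, for 6 of the genes described. Over all genes tested, 0.556% were called higher and 0.137% lower for this difference. Dusp1 responded by a log2 fold change of -1.50 in WT and -0.42 in KO, a difference of 1.08. Dusp5 rose in both genotypes, 2.28-fold in WT and 3.65-fold in KO, a difference of 0.68 on the log2 scale. Both genes were picked with this contrast known, so the differences are a description. The pathway lists were also chosen with earlier results of these data known, so nothing is read from the count of 6. Among the pathway genes the difference was 1.09 for Fos, 0.96 for Fosb, 0.63 for Gadd45b and 0.50 for Nr4a1, with edgeR adjusted p of 0.047, 0.048, 0.041 and 0.039. These pathway calls were lost with the replicate block (edgeR adjusted p of 0.057 to 0.077) and in most fits that left out 1 library. A lower KO value at rest by itself raises this difference. By Xist and Ddx3y the resting libraries look male and the stimulated libraries look female. The part of sex in these differences was not tested. At rest WT libraries also held more myeloid marker transcripts than KO libraries (1363 to 3771 against 1246 to 1292 CPM), and the part of these in the 6 differences was not tested.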

How the results depend on the processing

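The 9 genes kept the direction of every called value under all alternatives run. Counts below are genes called among all genes, with the 9 genes and the pathway lists named where meant. At rest, 6 genes became 40 without a low-count filter, 161 with all 12 libraries in 1 fit, 465 with DESeq2 and 30 without both resting libraries numbered 1; of the 9 genes, 0 became 2 in the fit of 12 libraries and 2 with DESeq2, and of the pathway lists, 0 became 1 without a filter, 3 in the fit of 12 libraries and 8 with DESeq2. After stimulation, 719 genes became 219 in the fit of 12 libraries and 1141 with DESeq2; of the 9 genes, 3 became 1 in the fit of 12, and of the lists, 3 became 7 without a filter, 0 in the fit of 12 and 6 with DESeq2. For the difference of responses, 121 genes became 204 with at least 1 CPM in 3 libraries, 960 with DESeq2 and 209 without both resting libraries numbered 1; the lists' 4 became 2 with DESeq2's size factors and 9 with DESeq2. Why these counts moved was not tested. Leaving out 1 library at a time gave 2 to 18 genes at rest (0 of the 9, 0 of the lists), 128 to 1408 after stimulation (2 to 4 of the 9, 0 to 6 of the lists), and 27 to 1646 for the difference of responses (1 to 3 of the 9, 0 to 11 of the lists). For the response it gave 14358 to 14955 genes in WT (81 to 86 of the lists) and 14040 to 14866 in KO (80 to 86), with all 9 genes called each time. With unscaled totals, pathway genes that were called on either scale and changed sign in the response included in WT Rasa2 (-0.19), Braf (-0.27), Shoc2 (-0.13) and Nr4a1 (-0.05), and in KO Spred2 (-0.01), Ptpn7 (-0.0011), Ppm1a (-0.05), Sos2 (-0.02), Rasa2 (-0.24), Braf (-0.21) and Shoc2 (-0.18). Replicate numbers are shared by the groups, but same-numbered libraries did not deviate together in every pair (correlations of WT with KO of 0.328, -0.111 and 0.274 at rest and -0.0287, 0.00523 and 0.0209 after stimulation). At rest the libraries numbered 1 correlated best with each other, as did those numbered 3, while WT replicate 2 correlated best with KO replicate 1 (0.133). With the replicate block Dusp4 was called after stimulation (0.27), the lists' calls after stimulation became 5 and those of the difference of responses 0, with adjusted p of 0.069 for Gadd45b, 0.077 for Fos, 0.075 for Fosb and 0.057 for Nr4a1. Spry2 had 44 to 79 counts in stimulated libraries, which limits its precision most among the 9.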
